A study of Mus musculus with 278 samples.

Results

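The cytosolic ribosomal protein genes were taken from the expression table by symbol: Rpl or Rps followed by a number and an optional a, x, l or y, together with Rplp0, Rplp1, Rplp2 and Rpsa. The rule was met by 75 of the 14145 genes listed, 45 of the large and 30 of the small subunit. They include 73 of the 76 genes usually counted as the core set, and the paralogs Rpl39l and Rps27l. Rpl26, Rpl38 and Rps27 were not analysed here.

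Ribosomal proteins assemble with ribosomal RNA into a small subunit, which reads the messenger RNA, and a large subunit, which joins the amino acids. Each ribosome holds about the same number of copies of nearly every protein, and the cell makes them from messenger RNAs that are transcribed constantly and translated together in response to growth signals through the TOR kinase. Most of these mRNAs start with an uninterrupted run of C and T bases, the terminal oligopyrimidine or TOP sequence, which carries that control. Mammalian ribosomal protein genes also have many processed pseudogenes, copies of their mRNAs inserted elsewhere in the genome, so that reads from these genes often match several places.

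The cells were single cells labelled as keratinocytes, the main cells of the epidermis, cultured from the back skin of adult mice. WT cells were mixed 9 to 1 with K14ΔNβ-cateninER cells. In these the Krt14 promoter drives beta-catenin that resists degradation, joined to part of the oestrogen receptor so that 4-hydroxy-tamoxifen (4OHT) switches it on. Treated cultures received 200 nM 4OHT for 24 h and untreated cultures received DMSO. Cells were captured on a C1 microfluidic chip, and the library names fall into an AG and a GHA501A series. AG holds 66 untreated and 64 treated cells, and GHA501A holds 71 untreated and 69 treated cells, 270 in all. Controls contain the same transgenic cells, which were not told apart from WT cells here, and the labels give neither strain nor culture, so that p-values measure only the spread between these sets of cells, which may be technical. The 4 sets were taken as replicates, 2 per condition. All values are TPM, a transcript abundance scaled for gene length, which total 1000000 in each cell. The sequencing depth of each single cell is therefore not known from these values, and every level is relative to the other genes of the cell. The median number of genes over 1 TPM per cell was 6191 in untreated and 6381 in treated AG cells, and 6392 in untreated and 6008 in treated GHA501A cells.

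The series differed in the markers of the labelled cell type. Krt14, a basal keratin, had a mean of 5314 TPM in untreated and 6039 TPM in treated AG cells, and was over 1 TPM in 100% of both. In GHA501A its mean was 226 TPM in untreated cells, where 66.2% were over 1 TPM, and 846 TPM in treated cells, where 91.3% were. The summed level of the 19 keratinocyte markers in the table was 33702 and 36073 TPM in untreated and treated AG cells against 2960 and 6402 TPM in GHA501A, with Krt17 the most abundant in each set. Itgb4 was listed at 0 in both AG sets and no marker of this list was at 0 in GHA501A. The 14 fibroblast markers ran the other way, with sums of 833 and 936 TPM in AG, mostly from Sparc, and 4575 and 5346 TPM in GHA501A, led by Col1a1 (type I collagen), which was over 1 TPM in 100% of cells of both GHA501A sets. Markers of the labelled cell type were thus high in AG and low in GHA501A, and the part of this in the comparisons between series below was not tested.

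To show the TOP sequence of these genes, the bases around the annotated start of transcription were read from the RefSeq promoter table (GRCm38.p6), which matched 55 of the 75 genes. A run of at least 8 bases that are each C or T lay within 50 bases of the start, on the strand of the gene, in 47 of the 55 (85.5%), against 39.3% of all 27025 genes of that table. A run that covered the start base itself was found in 15 of the 55 (27.3%) against 4.59% of all genes. The following 7 of these 15 are shown because their levels are described below. Each stretch covers the 10 bases before the start and the first 20 bases of the transcript, 5′ to 3′, and capitals mark the part of the run inside it.
Rpl14, chr9:120571507-120571536, plus strand: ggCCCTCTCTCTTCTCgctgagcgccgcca
Rpl34, chr3:130730318-130730347, minus strand: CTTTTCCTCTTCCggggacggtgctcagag
Rpl35a, chr16:33056472-33056501, plus strand: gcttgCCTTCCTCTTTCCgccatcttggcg
Rplp2, chr7:141447641-141447670, plus strand: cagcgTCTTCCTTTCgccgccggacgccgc
Rps6, chr4:86857348-86857377, minus strand: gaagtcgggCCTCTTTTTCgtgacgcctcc
Rps15a, chr7:118116128-118116157, minus strand: tttctgccaTCTTCCCTCgccggtgagtga
Rps24, chr14:24490668-24490697, plus strand: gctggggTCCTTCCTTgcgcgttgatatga
These runs describe the annotated sequence only. Since these genes were picked for having the run, its presence in all of them says nothing of their levels.

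Levels differed widely between genes whose proteins are needed in equal numbers. Rpl4, which lines the peptide tunnel of the large subunit, was the highest member in every set, with means of 6648 and 8796 TPM in untreated and treated AG cells and 7227 and 7157 TPM in GHA501A. Single cells ranged in Rpl4 from 62.9 to 13672 TPM (median 7445) in untreated AG cells and from 586 to 17416 TPM (median 7321) in untreated GHA501A cells, so that the sets overlapped almost wholly. Rpl14 was second in every set (4950, 6116, 5837 and 5659 TPM in the same order), and the other members among the 10 highest over the 4 sets were Rpl8, Rpl36, Rplp0, Rps29, Rplp1, Rpsa, Rps12 and Rps25. The 10 highest members of each set itself, which are not always the 10 just named, made up 47.2%, 46.7%, 49.1% and 49.9% of its ribosomal protein TPM. The highest gene stood 10.0 to 11.1 times above the median member that passed the filter.

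At the other end, Rps15a, of the small subunit, was at 34.2 and 42.7 TPM in AG and at 30.98 and 27.2 TPM in GHA501A, and over 1 TPM in all but 3 of the 270 cells. Rpl22, a large subunit protein without which mice can live, was at 57.6 and 60.6 TPM in AG and 120 and 87.5 TPM in GHA501A. Of the other 3 of the 5 lowest, Rpl13a and Rpl18 were low in 1 of the series only. Rpl35a, near 0 in AG, was also below the large subunit medians of 460 and 465 TPM in untreated and treated GHA501A cells. Of the paralogs, Rps27l, known as a p53 target, was at 262 and 312 TPM in AG and 366 and 337 TPM in GHA501A, while Rpl39l, known from the testis, was over 1 TPM in 1 untreated and 1 treated AG cell and listed at 0 in every GHA501A cell. Its partner Rpl39 was at 362 and 620 TPM in AG and 525 and 480 TPM in GHA501A. Rpl39l alone did not pass the filter (over 1 TPM in more than 5 cells), which 12355 genes and 74 members did.

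**Figure D1:**
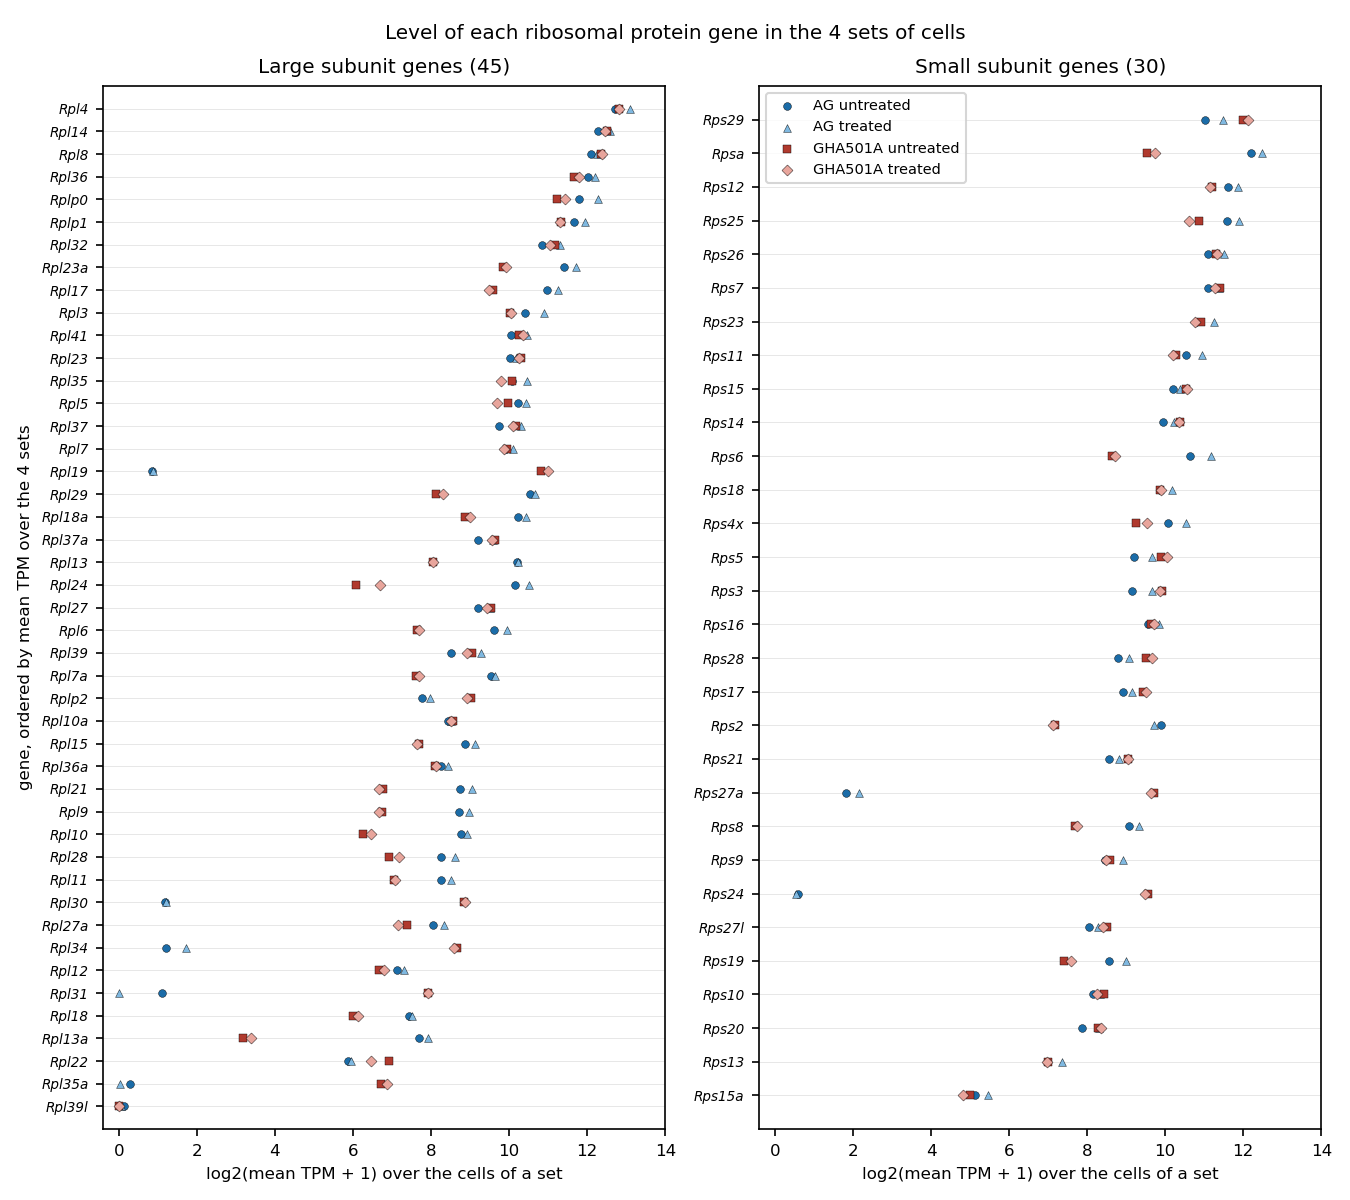
Level of each of the 75 genes, as log2(mean TPM + 1) over the cells of a set, with large subunit genes on the left and small subunit genes on the right, ordered by mean TPM over the 4 sets. Circles and triangles (AG) and squares and diamonds (GHA501A) lie within 1 of each other, on average over treatments, for most genes, while 30 of the 74 tested differ by more, among them Rpl13a and 7 genes such as Rpl19 that lie near 0 in AG alone.

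Large and small subunit genes contributed in a steady proportion. Large subunit genes made up 5.32% of the mean TPM of untreated AG cells and 6.56% of that of treated ones, and 4.71% and 4.72% in GHA501A, and small subunit genes 3.28%, 4.12%, 3.05% and 3.05% in the same order. The ratio of the sums was 1.62 and 1.59 in AG and 1.54 and 1.55 in GHA501A, close to the 45 to 30 ratio of gene numbers. In single cells the ratio had a median of 1.62 in untreated AG cells (lowest 0.738, highest 2.44) and 1.63 in treated ones (0.741 to 1.95), and of 1.57 in both GHA501A sets (0.936 to 1.95 and 0.870 to 2.23). Per gene, the median level was higher in the small subunit, at 671 against 589 TPM in untreated and 824 against 773 TPM in treated AG cells, and at 749 against 460 TPM and 805 against 465 TPM in GHA501A.

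Taken as a sum, the 75 genes held between 1.77% and 20.01% of the TPM of a cell. The highest share was that of a treated AG cell with 2538 genes over 1 TPM, the fewest in its set. Among treated AG cells with at least 4000 genes the highest was 16.9%. In untreated AG cells the share ranged from 1.77% to 13.8% with a median of 9.51%, and in treated AG cells from 2.76% to 20.01% with a median of 10.8%. In untreated GHA501A cells it ranged from 2.40% to 11.2% with a median of 7.82%, and in treated ones from 2.51% to 12.8% with a median of 7.66%. The sets overlapped, and untreated AG cells spread the most, with a lower quartile of 6.01% against 9.30% in treated AG cells and 7.05% and 6.73% in GHA501A. Means over cells were 8.60% and 10.7% in untreated and treated AG cells and 7.763% and 7.764% in GHA501A. Treated less untreated, the medians differed by 1.27 percentage points in AG and by -0.162 in GHA501A, with a mean of 0.556 ± 1.02 (SD, n = 2 series), so that the difference was smaller than its spread between series. From the means over cells in place of the medians, the mean difference was 1.04. Between series, AG exceeded GHA501A by 1.69 percentage points in untreated and by 3.13 in treated cells (mean 2.41 ± 1.02, SD, n = 2 treatments). Only 2 sets stood on each side, where an exact permutation test cannot pass the threshold, and none was made.

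The share was set beside the number of genes detected and the most abundant other genes. In untreated AG cells the share and the number of genes over 1 TPM had a Pearson r of 0.59 over 66 cells (Spearman rho 0.48), against 0.13 in treated AG cells and -0.21 and -0.27 in untreated and treated GHA501A cells. Among cells with at least 4000 genes the AG medians were 9.57% and 10.8%. This limit took out only 2 of the 66 untreated and 3 of the 64 treated AG cells. The medians could therefore hardly move, and nothing is read from them on the part of genes detected. The percent of TPM held by the highest gene outside the members had a Pearson r with the share of -0.14 and -0.02 in untreated and treated AG cells and of 0.19 and -0.06 in GHA501A cells. Cct2, a chaperonin subunit, was listed at a mean of 31817 to 36350 TPM in the 4 sets, Fth1 (ferritin heavy chain) at 33297 and 28890 TPM in GHA501A, Gatad1 at 15557 and 11994 TPM in GHA501A, and Gm20594 at 13823 and 9113 TPM in AG. With these 4 genes taken out of the total, the median shares were 9.99% and 11.2% in AG and 8.40% and 8.61% in GHA501A, and the GHA501A difference turned from negative to positive.

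**Figure D2:**
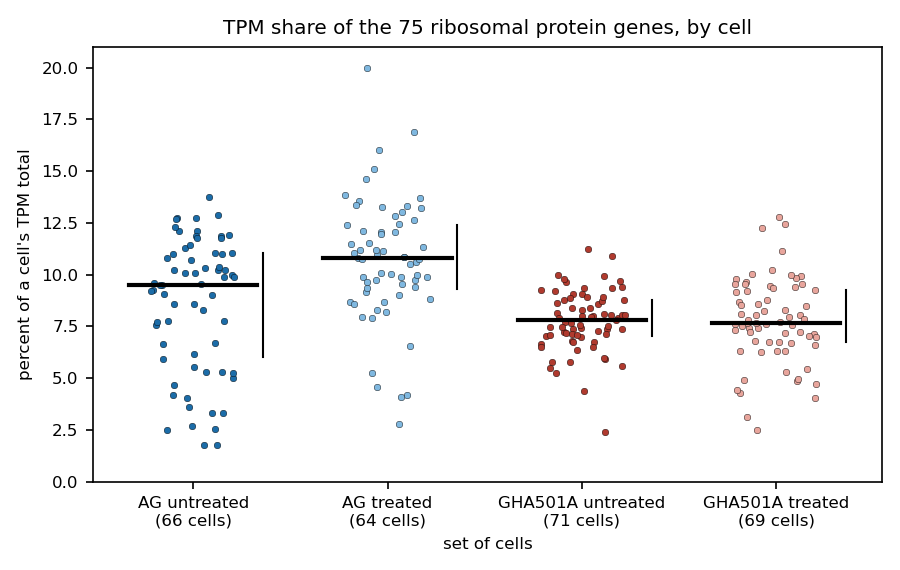
Percent of the TPM total held by the 75 ribosomal protein genes in each cell (points), by set. Horizontal lines mark medians (9.51%, 10.8%, 7.82% and 7.66%) and vertical lines the quartiles, and untreated AG cells have the longest tail towards low shares.

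The comparison of treated with untreated cells set cultures with active beta-catenin in the transgenic cells beside cultures with inactive beta-catenin. The study asked about the WT neighbours, but WT and transgenic cells were not told apart here. No member passed the threshold (limma on log2(mean TPM + 1) of the 4 sets with the series as a block, adjusted p under 0.05 and a log2 change over 0.5), and 0% of the 12355 genes tested did. No member reached an unadjusted p under 0.05, which 459 of all genes did. The lowest adjusted p of a member was 0.998. The standard errors of the members' log2 changes, 0.325 to 0.417, exceeded most of the changes, so that changes of this size were not detectable with 2 sets a condition. The median change over the 74 members was 0.14 on the log2 scale against -0.00089 over all genes.

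Directions were counted in each series. In AG 70 of the 74 members had a higher mean in treated cells, where 43.5% of all genes did, with a median log2 difference of 0.28 (large subunit 0.24, small subunit 0.30) against -0.07 over all genes. In GHA501A 37 of the 74 were higher in treated cells, where 54.9% of all genes were, with a median of -0.0016. Since the members share the cells and the TPM total of a set, the 70 genes of AG are not 70 independent observations, and whether the series differ was not tested. In GHA501A the keratinocyte markers were also higher in treated cells, with Krt14 at 846 against 226 TPM, and the part of this in the comparison was not tested. In the 4 AG exceptions, Rpl31, Rpl35a and Rps24 were near 0 in that series, and Rps2, a small subunit protein at the mRNA entry, was at 951 ± 534 TPM in untreated (SD, 66 cells) and 835 ± 706 TPM in treated cells (SD, 64 cells).

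In both series 35 members had a higher and 2 a lower mean in treated cells, and none passed the test. The counts of the series, 70 and 37 of 74, would give as many if their directions were unrelated. Of the 35, the largest mean differences were those of Rpl24, Rps4x and Rplp0. Rpl24, a large subunit protein that contacts the small subunit, differed by 0.36 in AG and by 0.63 in GHA501A on the log2 scale (fit 0.49, SE 0.33, unadjusted p = 0.20). Its single cells overlapped, with a median of 1301 TPM (16.1 to 2264) in untreated and 1475 TPM (0 to 3076) in treated AG cells, and of 51.5 TPM (6.18 to 257) and 89.4 TPM (4.63 to 363) in GHA501A. Rps4x, the X-linked form of a small subunit protein, differed by 0.47 and 0.28 and Rplp0, the base of the ribosomal stalk, by 0.49 and 0.19. The 2 that were lower in both were Rps2 (-0.19 and -0.03) and Rps24 (-0.05 and -0.08). Outside the near-0 genes, the largest difference in AG was that of Rpl39 (0.77, against -0.13 in GHA501A), and the lowest in GHA501A was that of Rpl22 (-0.45, against 0.07 in AG).

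**Figure D3:**
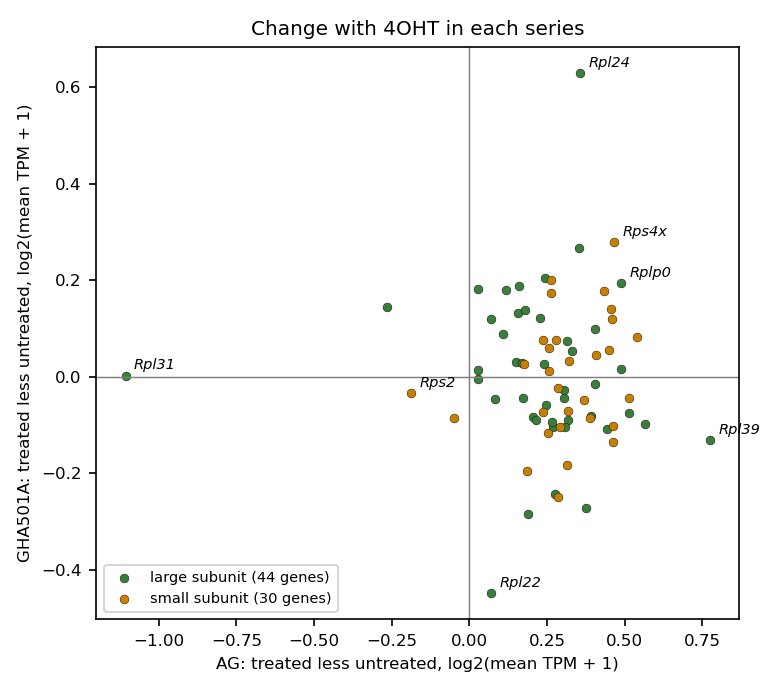
Difference between treated and untreated cells in log2(mean TPM + 1) for the 74 genes that passed the filter, with AG on the horizontal and GHA501A on the vertical axis. Most points lie to the right of 0 (70 of 74 genes) and evenly above and below it (37 and 37), and none passed the test.

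The series differed far more than the treatments. Levels of the 74 members on the log2 scale had a Pearson r of 0.998 between the 2 AG sets and 0.997 between the 2 GHA501A sets, but of 0.41 between untreated AG and GHA501A cells and 0.42 between the treated ones. Without the 7 members near 0 in AG described below, it was 0.78 between the untreated and 0.81 between the treated cells of the series. Those 7 were picked by their difference between the series, so leaving them out was bound to raise r. The Spearman rho, which such extremes move less, was 0.68 and 0.71 with them and 0.78 and 0.81 without them. These are correlations across genes, which are not independent replicates. In limma with treatment as a block, 21 members (16 large, 5 small) were higher in AG, where 10.8% of all genes were, and 7 (5 large, 2 small) were lower, where 18.2% of all genes were. Without either AG set, which leaves 1 set on that side, most of the 21 higher calls were lost, as were most of the calls among all genes. The median difference was 0.17 on the log2 scale against -0.01 over all genes, and 30 of the 74 differed by more than 1 in either direction. The SD of the differences was 2.78 over the members and 1.91 over all genes. The share of all genes that differed by more than 1 was not counted here, so nothing particular to the members is read from the 30.

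The 7 members called lower in AG were almost unlisted there. Rpl19, of the large subunit (chr11:98026710-98030492, GRCm38, plus strand), was at 0 in 110 of the 130 AG cells and nowhere above 16.7 TPM, with set means of 0.81 and 0.85 TPM, while in GHA501A its lowest cell was at 259 TPM and its set means were 1800 and 2042 TPM. The AG and GHA501A cells did not overlap. Rps24, a small subunit protein mutated in Diamond-Blackfan anaemia (chr14:24487125-24496959, plus strand), was at 0 in 124 AG cells, with set means of 0.52 and 0.47 TPM against 754 and 711 TPM in GHA501A, where it ranked 33rd and 37th of the members. Rps27a, made as a fusion with ubiquitin (chr11:29545846-29548109, minus strand), had set means of 2.56 and 3.43 TPM in AG and 836 and 795 TPM in GHA501A. Rpl30 (chr15:34440505-34443640, minus strand), whose yeast counterpart represses its own splicing, had 1.28 and 1.32 TPM against 460 and 465 TPM. Rpl31 (chr1:39367842-39371911, plus strand), near the exit of the peptide tunnel, was over 1 TPM in 2 untreated AG cells (the higher at 69.99 TPM) and listed at 0 in every treated one, against 243 TPM in both GHA501A sets. Rpl34 and Rpl35a, whose TOP runs are printed above, had 1.30 and 2.28 TPM against 404 and 383 TPM, and 0.22 and 0.014 TPM against 104.1 and 115.1 TPM.

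All 7 were over 1 TPM in every GHA501A cell. So were nearly all members, with 73 over 1 TPM in every cell of the untreated and of the treated GHA501A set. Nothing particular to the 7 is read from this. The 7 together held a median of 0.439% and 0.476% of the TPM in untreated and treated GHA501A cells, and 0.00039% and 0.00074% in AG. On the log2(mean TPM + 1) scale their differences ran from -6.63 (Rpl35a, SE 0.34) to -10.03 (Rpl19, SE 0.33), each with an adjusted p of 0.0018. These sizes depend on the added 1 TPM, since the AG values lie near it. A mean under 5 TPM in both AG sets and over 100 TPM in both GHA501A sets, limits chosen after the values were seen, was found for these 7 of 74 members and for 1.04% of the 12355 genes, and the reverse for 0 members and 0.13% of genes.

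Some other genes that cells use at all times showed the same pattern, while most genes of the lists used here did not. The limits above were met by 3 of the 12 other TOP mRNA genes tested and 1 of 8 elongation factor genes. They were met by 3 of 35 initiation factor genes and 2 of 36 ribosome biogenesis genes, against 1.04% of all genes. The genes named here are those that showed it. Outside the symbol rule, Fau (fused to small subunit protein S30) was at 1.83 and 3.35 TPM in AG and 1146 and 1219 TPM in GHA501A. Among other TOP mRNAs, Btf3 was at 0.11 and 0.015 TPM against 377 and 339 TPM, Naca at 0.13 and 0.74 TPM against 346 and 300 TPM, and Hnrnpa1 at 2.39 and 1.94 TPM against 1436 and 984 TPM. The elongation factor Eif5a was at 0.041 and 0.039 TPM against 243 and 241 TPM. The chaperone Hspa5 (0.21 TPM in both AG sets, 590 and 726 TPM in GHA501A) is named as an example chosen after its values were seen. Culture, capture, library, cell makeup and quantification of the series cannot be told apart here.

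Of the 21 members called higher in AG, Rpl13a and Rpl24 differed the most. Rpl13a, a large subunit protein that can leave the ribosome to silence inflammatory mRNAs (chr7:45125558-45128761, minus strand), had a median of 212 TPM (0 to 397) in untreated and 247 TPM (1.49 to 421) in treated AG cells and of 7.23 TPM (0 to 31.9) and 5.82 TPM (0 to 60.9) in GHA501A. Its log2 difference was 4.53 (SE 0.33, limma adjusted p = 0.0020), and both AG medians lay above the highest GHA501A cell, although the sets overlapped at their ends. Rpl24 (chr16:55966275-55971435, plus strand) differed by 3.95 (SE 0.33, adjusted p = 0.0026). Rpsa, the small subunit protein also known as the laminin receptor precursor (chr9:120127689-120132369, plus strand), had means of 4728 and 5673 TPM in AG, where its rank was 3, and of 744 and 854 TPM in GHA501A, where it ranked 34th and 28th. Rps2 (chr17:24718116-24721929, plus strand) had 951 and 835 TPM against 143.04 and 139.6 TPM, and Rpl10, which is added late to the large subunit (chrX:74270812-74273135, plus strand), had 434 and 485 TPM against 75.6 and 86.4 TPM. The remaining 16 ran from Rps19 (1.28) to Rpl29 (2.38) and include Rps6 (2.23), the S6 kinase target. Rpl4, Rpl14 and Rpl8, the 3 highest members, differed by 0.09, -0.06 and -0.19, with adjusted p from 0.69 to 0.90.

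Sequence shared with other genes was set beside the difference between series. For each member, stretches of 100 bases of its annotated protein-coding transcripts (GENCODE M21, GRCm38) were looked for, without mismatch, in the transcripts of other genes, mostly pseudogenes. Rps2 shared a stretch with 36 other genes, Rpl10 and Rpsa with 10 each and Rpl24 with 4, while Rpl4, Rpl14 and Rpl8 shared one with 1 gene each. Across all 74 members, the AG less GHA501A difference had a Spearman rho of 0.47 with the number of such genes and of 0.39 with the percent of stretches shared, a description across genes that share libraries. With the percent of a member's exon bases that exons of other annotated genes overlap, rho was 0.27. The median difference was -0.19 in the 18 members with 0 or 1 such gene, 0.27 in the 28 with 2 to 5, 0.77 in the 20 with 6 to 11, and 1.75 in the 8 with 12 or more, and the members of each range spread far wider than these medians differ. Rpl13a was an exception, sharing a stretch with 1 gene. Exons of other genes overlapped 35.4% of its exon bases, a percent that reached 66.2% among the members (Rpl35), and the part of such overlap was not tested. The 7 near-0 members shared stretches with 4 to 12 genes, and the part of shared sequence in their values was not tested. Levels of members with shared stretches are uncertain, since the authors discarded reads that map to several places.

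**Figure D4:**
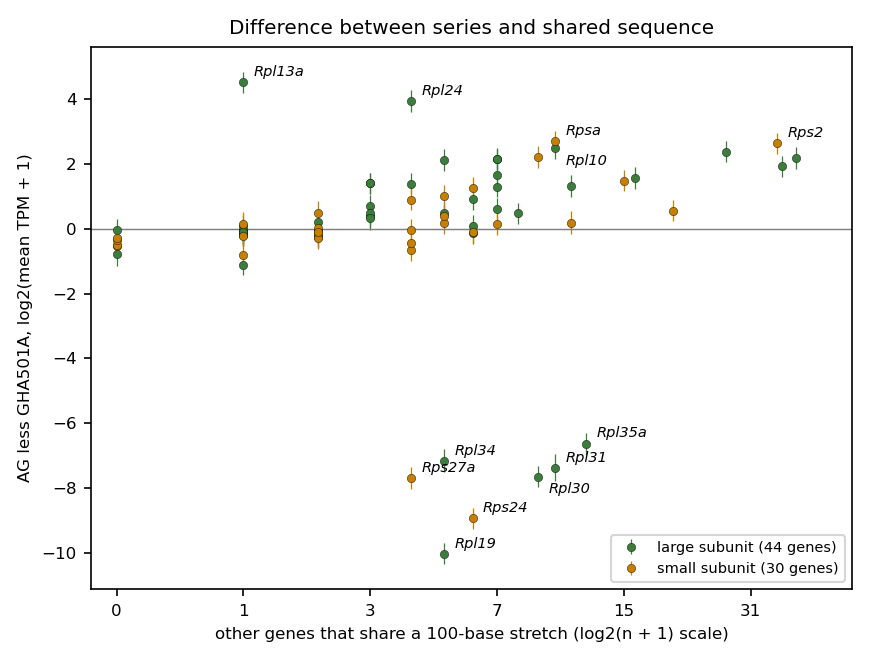
AG less GHA501A difference in log2(mean TPM + 1), with bars of 1 SE of the limma fit, against the number of other genes that share a stretch of 100 bases, on a log2(n + 1) axis. The 7 near-0 genes lie between -6.63 and -10.03, Rpl13a and Rpl24 are the highest points at 4.53 and 3.95, and over all 74 genes the median runs from -0.19 with 0 or 1 such gene to 1.75 with 12 or more.

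The products of the stalk genes recruit elongation factors to the large subunit. Rplp0 was at 3560 and 4996 TPM in AG and 2393 and 2739 TPM in GHA501A, and Rplp1 at 3217 and 3971 TPM against 2571 and 2521 TPM. Rplp2, whose protein pairs with that of Rplp1 in equal number, was far below them at 216 and 251 TPM in AG and 518 and 487 TPM in GHA501A. None of the 3 was called between series (adjusted p = 0.18, 0.33 and 0.07, limma).

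Lists of other genes of translation give the setting, and their counts are to be read beside the 10.8% of all genes called higher and the 18.2% called lower in AG. Of the 8 elongation factor genes tested 1 was called higher in AG (Eef1a1, which delivers transfer RNA to the ribosome, at 5487 and 7462 TPM in AG and 1191 and 1301 TPM in GHA501A) and 2 lower (Eef1d and Eif5a). Among ribosomal proteins outside the symbol rule, Rps3a1 was called higher and Fau lower. Rps3a1 was at 4300 and 5359 TPM in AG and 1121 and 1322 TPM in GHA501A, and Rack1, Rpl36al, Rpl7l1 and Rpl22l1 were not called. Of the 12 other TOP mRNA genes 1 was higher (Eef1a1) and 6 lower, Npm1 among them at 28.3 and 17.0 TPM against 2032 and 1924 TPM. Of 35 initiation factor genes 0 were higher and 7 lower, of 36 ribosome biogenesis genes 0 and 5, of 16 S6 kinase and TOR pathway genes 1 and 2, of 17 S phase genes 0 and 5, and of 16 G2/M genes 0 and 3, and nothing particular to these lists is read from such counts. Of 19 keratinocyte markers 14 were higher and 0 lower, and of 14 fibroblast markers 0 were higher and 11 lower. None of these genes was called with treatment. Suprabasal keratinocyte (3 tested, 0 called), melanocyte (3 tested, 1 lower in AG) and immune markers (1 tested, Lyz2, lower in AG) were sparse. Of the endothelial markers Kdr and Tek were at or under 0.36 TPM in every set.

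Spread between cells was measured as the coefficient of variation (CV, the SD of TPM over its mean). Rpl23a, at the exit of the peptide tunnel, had the lowest mean CV over the 4 sets, 0.374, followed by Rps28 (0.387) and Rpl23 (0.389). The highest were those of the near-0 genes Rpl35a (4.14), Rpl31 (2.76) and Rps24 (2.73). Among members over 100 TPM in every set the highest was that of Rps15 (0.921), which had single cells as high as 13192 TPM in treated AG and 14152 TPM in untreated GHA501A cells against medians of 1053 and 1162 TPM.

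With treatment, 0 of the 73 members with a CV in every set were called, where 1 of 11283 genes (0.00886%) was, and no member had an unadjusted p under 0.05, which 415 of all genes had. Treated less untreated, the log2 CV had a median of -0.25 in AG, against -0.24 over all genes, and was lower for 59 of 73 members, where 71.1% of all genes were lower. In GHA501A the median was 0.27, against 0.14 over all genes, and 61 of 73 members were higher, where 64% of all genes were. Nothing particular to the members is read from these counts. The difference between the series was not tested.

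Between series, 8 members were more variable in AG (7.28% of all genes were) and 1 less (6.73% were). With the SD of log2(TPM + 1) in place of the CV, 39 were more variable in AG and 0 less, where 30.9% of all genes were called in either direction. Of the 8, 6 are near-0 genes, for which a CV follows the low mean, and the other two are Rpl39 (log2 difference 1.20) and Rpl11 (1.21). The highest treated AG cell had 8053 TPM of Rpl39 against a median of 498 TPM. Without either GHA501A set, which leaves 1 set on that side, most of the members' calls by CV were lost, as were most of those among all genes. Rpl13a, low in GHA501A, was the 1 that was less variable in AG (-1.14).

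Ribosomal protein genes co-varied from cell to cell. Across pairs of members, the median Pearson r of log2(TPM + 1) was 0.45 in untreated AG (66 cells, 2701 pairs), 0.39 in treated AG (64 cells, 2628 pairs, since Rpl31 was 0 throughout), 0.25 in untreated GHA501A (71 cells) and 0.34 in treated GHA501A (69 cells). The r was above 0 for 95.9%, 92.9%, 86.9% and 94.4% of the pairs. The median over all pairs of genes tested was between 0.0053 and 0.031. Since low genes have low r, genes with a set mean over 100 TPM give a closer reference. Among these the members had medians of 0.51, 0.45, 0.26 and 0.35 and all genes of 0.13, 0.21, 0.05 and 0.06. All pairs share the cells, their depth and the TPM total, and no p is given.

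Pairs within and between subunits did not stand apart. In untreated AG cells the median r was 0.44 within the large subunit, 0.46 within the small one and 0.46 between them, and in untreated GHA501A cells 0.25, 0.26 and 0.26. In treated cells the order differed by series, with 0.42, 0.31 and 0.38 in AG and 0.31, 0.37 and 0.34 in GHA501A. The summed shares of the subunits had r of 0.95 and 0.88 in AG and 0.75 and 0.89 in GHA501A.

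Rpl23a, Rplp0 and Rpl35 had the highest median r with the other members (means over the sets of 0.52, 0.51 and 0.49), and Rpl35a, Rpl31 and Rps21 the lowest (0.05, 0.15 and 0.16). The first 2 of these lowest are near 0 in AG, while Rps21, a small protein of the small subunit, was at 377 to 528 TPM in the sets. Partner proteins were not always close. Rplp1 and Rplp2, which bind each other, had r of 0.62, 0.39, 0.37 and 0.05 in untreated and treated AG and untreated and treated GHA501A cells. Rpl5 and Rpl11, which enter the ribosome as 1 particle, had 0.43, 0.73, 0.28 and 0.55.

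**Figure D5:**
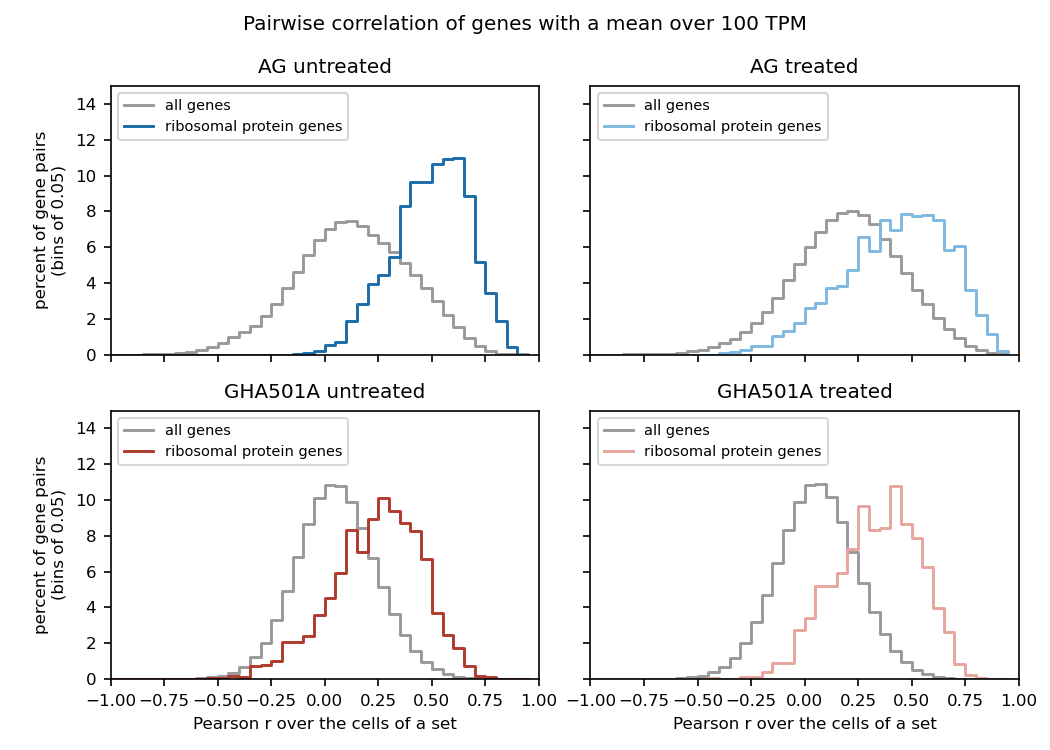
Distribution of the Pearson r of log2(TPM + 1) over the cells of a set, for pairs of ribosomal protein genes (coloured) and pairs of all genes (grey) with a set mean over 100 TPM, in bins of 0.05 as percent of pairs. The coloured curves lie to the right of the grey ones in all 4 sets, with medians of 0.51 against 0.13, 0.45 against 0.21, 0.26 against 0.05 and 0.35 against 0.06.

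In untreated AG cells the share of the members went with the number of genes over 1 TPM (r 0.59), which bears on the values of that set. The share went with Eef1a1 and the elongation factor list in every set, and less evenly with other genes of translation. Its Pearson r with log2(TPM + 1) of Eef1a1 was 0.75 and 0.41 in untreated and treated AG and 0.61 and 0.68 in GHA501A, and with the mean of the elongation factor list 0.71, 0.34, 0.53 and 0.49. With the initiation factors it was 0.74, 0.15, 0.41 and 0.38 and with the ribosome biogenesis genes 0.55, 0.13, 0.13 and 0.28. Cell cycle lists were weakly related, with r of 0.31, 0.19, -0.10 and 0.06 for S phase and 0.12, 0.07, -0.17 and -0.19 for G2/M genes. The fibroblast markers had r of -0.44 in untreated GHA501A cells and between -0.18 and -0.01 in the other sets, and the keratinocyte markers between -0.11 and 0.21.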

How the data were processed

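TPM per gene of single cells were used as deposited. According to the methods and the submitters' processing notes, the authors used cutadapt and FastQC, TopHat on GRCm38 without reads of several map positions, and featureCounts, and then derived the TPM. Versions are not given in the sources used here. Of 294 deposited cells 16 matched no label and were not used, and 8 AG cells with conflicting labels (5 labelled treated, 3 untreated) entered alternatives only. Genes over 1 TPM in more than 5 cells were kept. Levels, log2(mean TPM + 1), and log2 CV of the 4 sets entered limma 3.58.1, run in R 4.3.3 (two-sided moderated test, Benjamini-Hochberg adjustment, 1 residual degree of freedom, steps tested on simulated data). Calls needed an adjusted p under 0.05 and a log2 difference over 0.5. Shares and correlations were computed with numpy 2.4.6. Genes were named by extremes of level, difference, correlation and CV, as paralogs, stalk genes or list members. Members and lists were chosen with earlier results of these data known. No 2 cells had identical values. A result on 1 gene outside the symbol rule is not reported here.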

Additional observations from a re-analysis of the deposited data

Results flagged for a closer look

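The median ribosomal share of TPM had opposite signs in the series, with a treated less untreated difference of 1.27 percentage points in AG and of -0.162 in GHA501A. By means over cells the signs were not opposite, with 8.60% and 10.7% in untreated and treated AG cells and 7.763% and 7.764% in GHA501A. With 1 pair of sets per series this difference between the series was not tested, and the GHA501A difference was positive once Cct2, Fth1, Gatad1 and Gm20594 were taken out of the TPM total (8.40% and 8.61%).

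The 5 AG cells labelled treated whose library name otherwise marks untreated cells lie outside the comparisons. Their median ribosomal share was 10.4% (lowest 3.38%, highest 11.7%), above the 9.51% of untreated AG cells and below the 10.8% of treated ones. The 3 cells labelled untreated with the library name of treated cells had a median of 7.79% (lowest 4.94%, highest 14.3%).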

How the results depend on the processing

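With 2 sets per condition and 1 residual degree of freedom, only large differences could pass, and depth per cell is unknown. The count of 0 members called with treatment, by level or by spread, was the same under every alternative run. The 28 members called by level between series, where 29% of all genes were called, were 29 with no replicate block, where 31.2% were. Under the other settings of filter, pseudocount, cells or mean of logs they were 19 to 31, where 21.2% to 44.8% of all genes were. The 31, with the mean of logs, were a smaller share of the 74 than the 44.8% of all genes. Leaving out each set, without the block, gave 9 to 18, with 7 lower in AG each time and 2 to 11 higher. The 2 called higher without either AG set compare with 21 in all, and Rpl24, Rpsa and Rpl10 then had adjusted p from 0.050 to 0.062. The 9 members called by spread, where 14% of all genes were called, were 8 with no replicate block, where 12.2% were. With the SD of log2(TPM + 1) they were 39, all more variable in AG, where 30.9% of all genes were called. With a set left out, counts of calls by spread are not read either. Fewer members and fewer of all genes were then called, the fewest without either GHA501A set. The mean treated less untreated difference in ribosomal share was 0.556 percentage points from medians and 1.04 from means over cells, and ran from -1.01 (without treated AG cells) to 2.12 percentage points (without treated GHA501A cells) with a set left out, when the series no longer cancel. In the same fits the treated less untreated log2 difference reversed for Rpl24 (-1.55 to 2.54), Rps4x (-0.13 to 0.87), Rplp0 (-0.0917 to 0.775), Rps2 (-1.47 to 1.25) and Rps24 (-4.55 to 4.41), where a left-out set leaves the series unbalanced between treatments. In AG 64 to 70 members were higher in treated cells under all settings and in GHA501A 27 to 37, the lowest with the mean of logs. Settings limited to a total without 4 abundant genes, to members over 100 TPM or without the near-0 genes were chosen after seeing the data. So was the limit to cells with at least 4000 genes, except for co-variation, where it was planned.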
